A study of Mus musculus with 11 samples.

Results

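The effect of S-961 on pancreatic islets was examined in the libraries labelled virgin. These were the 3 bulk RNA-seq libraries titled virgin S-961 and the 2 titled virgin without treatment, which together make up 5 of the 11 libraries of the study and were picked by these titles alone. All islets came from female wild type C57BL/6J mice that entered the study at 9 weeks of age and were not mated. S-961 mice received intraperitoneal injections of 100 nmol/kg S-961, 2 per day for 3 days, whereas the comparison group carries the label no treatment, and nothing in the sources used here says that it was injected with vehicle. The other 6 libraries, labelled multipara, came from mice that had given birth 3 times, and serve here only to show where a change was shared. The question was which genes of the islet change when insulin action is blocked in a mouse without any history of pregnancy.

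S-961 is a peptide that occupies the insulin receptor without activating it, so that liver, muscle and fat no longer respond to insulin and blood glucose rises. Pancreatic islets are small endocrine organs in which beta cells make insulin, alpha cells glucagon, delta cells somatostatin and PP cells pancreatic polypeptide, embedded in the acinar tissue that makes digestive enzymes. Under insulin resistance beta cells are known to secrete and synthesize more insulin, which loads their endoplasmic reticulum, and in mice they can also divide.

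Total counts in the 5 libraries ran from 28638645 to 32234140. No library repeated another, since the chi-square statistic of their counts over genes, per degree of freedom, was 8.9 or more for every pair. The defining islet markers were all present, with *Ins1* and *Ins2* together at 15.2% to 20.7% of counts with S-961 and 35.3% to 36.0% untreated. Values are given as CPM, which are counts relative to library size after TMM scaling, and changes as the log2 fold change of S-961 over untreated. Several measures that are not the treatment itself moved with it. Genes of acinar cells took up 0.309% to 1.22% of counts with S-961 and 0.0155% to 0.0257% without. Genes with long transcripts were shifted upwards and genes with short transcripts downwards. The noncoding RNA *AY036118* was at 0 in all 7 S-961 libraries of the study and had 2419 to 4380 counts in each of the 4 untreated ones, and *Amy2a1*, a pancreatic amylase, showed the reverse. The labels name no date or batch, so that preparation and treatment cannot be told apart. The labels of the S-961 groups also need care, because *Mki67*, the marker of dividing cells, was at 3.43, 13.9 and 3.04 CPM in the S-961 libraries with the virgin label and at 93.9, 65.5, 43.5 and 3.93 CPM in those with the multipara label, on the joint scale of all 11 libraries. High *Mki67* was not limited to S-961, since an untreated library with the multipara label also lay above every library with the virgin label. An exchange of labels between the S-961 groups was not tested, and if there was one, the S-961 values below are those of multipara mice and hold parity as well as treatment. Libraries are therefore named by their labels throughout.

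Of 16586 genes tested, 4466 rose and 4034 fell at an adjusted p-value under 0.05 (edgeR quasi-likelihood test with Benjamini-Hochberg adjustment), which is 51.2% of all genes, 26.9% in the upward and 24.3% in the downward direction. A change of at least 2-fold was reached by 1885 of the genes that rose and 1774 of those that fell. The median change over all genes was -0.01 on the log2 scale, and counts of genes in each group below are to be read against these shares. All S-961 libraries lay above both untreated ones for 35.7% of all genes and below both for 35.6%, so that a gap between the groups on its own sets no gene apart. When the libraries were scaled on 30 housekeeping genes instead, all changes shifted upwards by 0.24 and 69.0% of the calls were higher rather than 52.5%, so that falls of less than about that size have no fixed direction. Of these 30 genes 12 fell and 3 rose in the main fit. With the acinar level of each library as a covariate 1214 genes passed the threshold, among them 624 of the genes that rose and 274 of those that fell. Counts with this covariate are given below, beside the lists or with the acinar genes. The acinar level, a mean log2 CPM, was 6.10, 6.43 and 4.68 with S-961 and 1.11 and 1.71 untreated. It nearly follows the treatment, so that this fit can hardly tell the 2 apart. Each p-value measures the spread between libraries. The S-961 libraries are as many as the mice stated for these groups, whereas the number of untreated mice behind this comparison is not given in the sources used here.

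**Figure D1:**
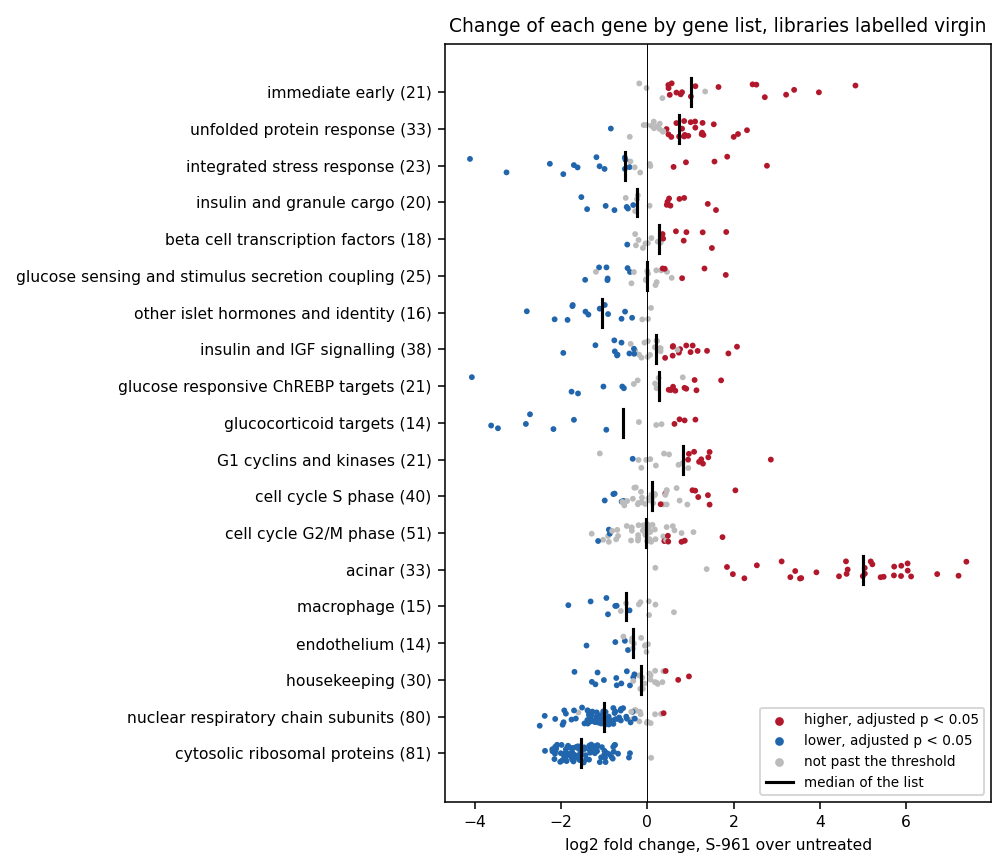
Log2 fold change of each tested gene (horizontal axis, S-961 over untreated) in 19 gene lists (vertical axis, number of genes tested in parentheses), with the black line at each list's median. Immediate early and unfolded protein response genes lie mostly to the right with medians of 1.01 and 0.74, the other islet hormones to the left at -1.04, acinar genes far to the right at 5.0, and ribosomal protein genes to the left at -1.54.

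Both insulin genes were lower with S-961, whereas enzymes that process the hormone moved both ways. *Ins2*, the insulin gene shared with other mammals, was at 92927, 94777 and 135344 CPM with S-961 and 302635 and 317457 CPM untreated. The groups did not overlap (log2 fold change -1.53 ± 0.16 (SE), adjusted p = 0.000246). *Ins1*, the additional rodent insulin gene, was at 38814, 39981 and 57213 CPM with S-961 and 115997 and 121981 CPM untreated. It fell by a similar size (log2 fold change -1.39 ± 0.17 (SE), adjusted p = 0.000398), and within the S-961 group replicate 3 was the highest for both genes. That library also held the least acinar RNA, and with the acinar level of each library as a covariate the change was -0.35 for *Ins2* and -0.20 for *Ins1*, with adjusted p-values of 0.532 and 0.753. Because the acinar level nearly follows the treatment, this fit cannot separate them, and a part of acinar RNA in the fall was not tested. *Iapp*, which encodes the amyloid peptide secreted together with insulin, was at 23448, 22217 and 30775 CPM with S-961 and 29836 and 30195 CPM untreated. These groups overlapped, and the difference did not pass the threshold (log2 fold change -0.24 ± 0.15 (SE), adjusted p = 0.218). Without S-961 replicate 3 it fell by 0.39 (adjusted p = 0.000564), and it turned upwards to 0.59 once the trend with transcript length was removed. The longest annotated transcripts of *Ins2* and *Ins1* are also short, at 918 and 1062 bases, against 839 for *Iapp*. Protein-coding genes of up to 1000 bases had a median change of -0.94, so that the size of the insulin falls is uncertain.

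Among the 20 genes of insulin and granule cargo, 8 rose and 7 fell, with a median of -0.23 that turned positive under the housekeeping scaling. Both counts were 4 without either of the untreated libraries, 4 fell without S-961 replicate 1 or 2, and with the acinar covariate 1 rose and 0 fell. *Pcsk1*, the convertase that makes the first cuts in proinsulin, was at 919, 837 and 768 CPM with S-961 and 337 and 299 CPM untreated. All S-961 libraries lay above both untreated ones (log2 fold change 1.40 ± 0.13 (SE), adjusted p = 0.00016). *Vgf*, a granule protein from which bioactive peptides are cut, showed the strongest rise of this list, from 8.88 and 10 CPM untreated to 31.6, 28 and 26 CPM with S-961 (log2 fold change 1.59 ± 0.13, adjusted p = 0.000101). *Scg2*, a secretogranin, and *Ero1lb*, the oxidase that forms disulfide bonds in proinsulin, rose by 0.86 and 0.75. *Cpe*, the carboxypeptidase that trims proinsulin and was named after its value was seen, fell by 0.45 (adjusted p = 0.0111). By contrast *Chga*, the granule protein chromogranin A, fell from 20295 and 19871 CPM to 9752, 9581 and 11585 CPM (log2 fold change -0.96 ± 0.12 (SE), adjusted p = 0.000428), and *Scg5*, the chaperone of the second convertase, fell by 0.76.

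Transcription factors of the beta cell rose in 8 of 18 tested cases and fell in 1, with a median of 0.28. *Mafa*, a factor of mature beta cells that acts on the insulin promoter, was at 553, 698 and 793 CPM with S-961 and 205 and 178 CPM untreated. Its lowest S-961 library was well above the higher of the untreated libraries (log2 fold change 1.83 ± 0.18 (SE), adjusted p = 0.000172). *Neurod1*, which acts on the same promoter, was at 191, 191 and 162 CPM with S-961 and 67.5 and 60.8 CPM untreated (log2 fold change 1.5 ± 0.13 (SE), adjusted p = 0.000101). *Nkx6-1*, another factor that beta cells need to keep their identity, rose by 0.85 (adjusted p = 0.00176) and *Esrrg*, a nuclear receptor linked to beta cell maturation, by 1.29. *Pdx1*, the factor on which pancreas formation depends, was at 98.3, 108 and 92.6 CPM with S-961 and 125 and 104 CPM untreated and did not pass the threshold (log2 fold change -0.20 ± 0.12, adjusted p = 0.202). *Hnf4a* was the member that fell, by 0.46. With the acinar covariate, *Esrrg* was at -0.67, below 0 and past no threshold, and the median of the list was -0.16. Of the 18 genes 4 rose without untreated replicate 2, and with the covariate 1 rose and 1 fell.

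**Figure D2:**
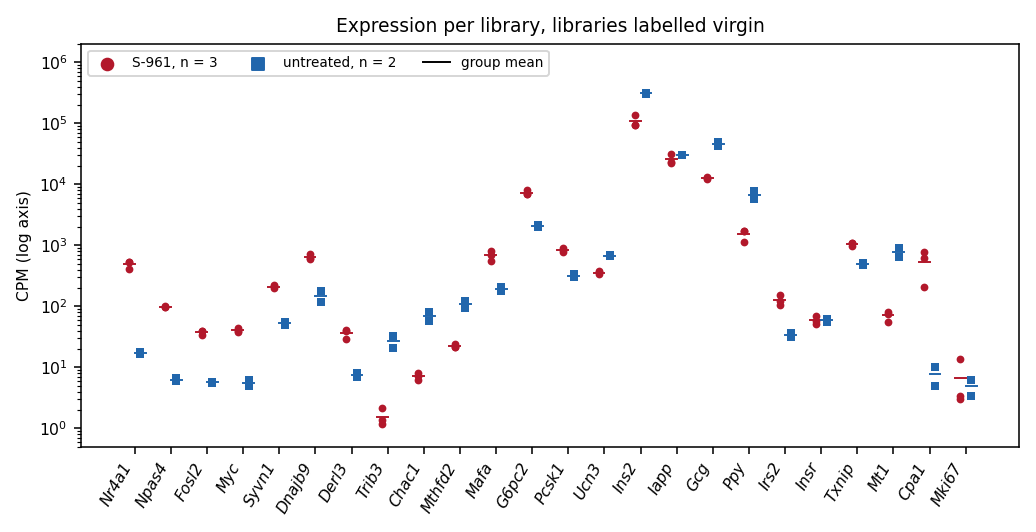
CPM of 24 genes on a log axis in the 3 S-961 libraries (red circles) and the 2 untreated libraries (blue squares) labelled virgin, with the group mean as a short line. The red and blue points are far apart for *Nr4a1*, *Npas4*, *Trib3* and *Chac1* and overlap for *Iapp*, *Insr* and *Mki67*.

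The machinery that couples glucose to insulin release was close to all genes as a group, with 5 of 25 genes higher, 7 lower and a median next to 0 (-0.000508). *G6pc2*, the glucose-6-phosphatase of islets, was at 6907, 6912 and 7963 CPM with S-961 and 2118 and 1992 CPM untreated. It rose by 1.82 ± 0.13 on the log2 scale (adjusted p = 5.93e-05), a change of 3.53-fold. *Ucn3*, a peptide of mature beta cells that acts on delta cells, was at 376, 361 and 334 CPM with S-961 and 684 and 669 CPM untreated and fell (log2 fold change -0.92 ± 0.11, adjusted p = 0.000393). *Trpm5*, a calcium-activated cation channel, fell by 1.44, its relative *Trpm4* by 1.12, and the fatty acid receptor *Ffar1* by 0.94. *Unc13a*, which primes vesicles for fusion, rose by 1.33 and the potassium channel *Kcnh6* by 0.81. *Slc2a2*, the glucose transporter GLUT2, had 398, 461 and 330.2 CPM with S-961 against 447 and 360.1 CPM, with overlapping groups (log2 fold change -0.026 ± 0.17, adjusted p = 0.909). *Kcnh6* was at -0.30 with the acinar covariate. The count of genes higher was 10 without S-961 replicate 3 and 3 without either untreated library, and with the acinar covariate 1 gene was higher and 4 lower.

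The hormones of the other endocrine cells were lower. In this list 13 of 16 genes fell and 0 rose, and the summed level of the list was 17940.2 to 21323 CPM with S-961 against 64352 to 70149 CPM untreated. *Gcg*, which encodes glucagon, was at 12189.8, 12844 and 13303 CPM with S-961 and 42938 and 48923 CPM untreated. The distance between the groups was many times the spread within them (log2 fold change -1.85 ± 0.11 (SE), adjusted p = 3.87e-05). *Ppy*, which encodes pancreatic polypeptide, was at 1124, 1702 and 1736 CPM with S-961 and 7723 and 5730.2 CPM untreated (log2 fold change -2.15 ± 0.21 (SE), adjusted p = 0.000184). *Sst*, the somatostatin gene, was at 1823, 1822 and 2659 CPM with S-961 and 4905 and 5902 CPM untreated, and its fall was of the size of that of insulin (log2 fold change -1.36 ± 0.19 (SE), adjusted p = 0.000708). *Ghrl*, the ghrelin gene, fell by 2.79 and *Ttr*, the thyroid hormone carrier made by alpha cells, by 1.73. Hormones of alpha and of delta cells thus fell beside insulin, whereas beta cell transcription factors did not fall as a group. In islet homogenates a smaller number of cells of a type and less RNA per cell cannot be told apart. With the acinar covariate the calls of *Ppy*, *Sst* and *Ghrl* were lost, at adjusted p-values of 0.229, 0.755 and 0.627, 4 genes of the list were lower, and *Gcg* stayed lower at -1.79 (adjusted p = 0.016). Hormone transcripts are short, at 500 bases for *Ppy*, 721 for *Sst* and 1088 for *Gcg*, and genes with short transcripts were shifted downwards. Once the trend with transcript length was removed, 13 genes of the list were lower, with a median of -0.93 against -1.04 as fitted.

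The unfolded protein response was raised across most of its members. It senses misfolded protein in the endoplasmic reticulum and induces the chaperones, oxidoreductases and degradation factors of that compartment. Of the 33 genes listed, all of them tested, 21 rose, 1 fell and 11 did not pass the threshold, with a median of 0.74. *Syvn1*, the ubiquitin ligase of endoplasmic reticulum-associated degradation, was at 212, 201 and 220.5 CPM with S-961 and 56 and 49.1 CPM untreated. The 3 S-961 libraries were within a narrow band far above the untreated ones (log2 fold change 2.0 ± 0.12 (SE), adjusted p = 4.28e-05). *Dnajb9*, a cochaperone that is a target of the XBP1 branch, was at 626, 593 and 709 CPM with S-961 and 179 and 119.6 CPM untreated (log2 fold change 2.10 ± 0.20 (SE), adjusted p = 0.000149). *Derl3*, part of the channel through which misfolded proteins leave, was at 39.6, 29.4 and 41.5 CPM with S-961 and 7.99 and 6.81 CPM untreated (log2 fold change 2.31 ± 0.18 (SE), adjusted p = 8.35e-05). *Sdf2l1*, a further chaperone component, rose by 1.54. *Hspa5*, the central chaperone BiP, was at 2473, 2197 and 3235 CPM with S-961 and 1617 and 1294 CPM untreated. Its rise was more modest (log2 fold change 0.86 ± 0.19 (SE), adjusted p = 0.00647), and without untreated replicate 2 it no longer passed the threshold (0.70, adjusted p = 0.0736). The single member that fell was *Fkbp2*, a peptidyl-prolyl isomerase, by 0.84, and it was at 0.23 with the acinar covariate. The list stayed raised under every alternative tried, with medians of 0.59 after removal of the length trend, where 28 genes were higher, and 1.27 with the acinar covariate, where 20 were. Without untreated replicate 2, and likewise in a fit over all 11 libraries, 13 genes passed as higher. Acinar cells, whose RNA was higher in the S-961 libraries, are known to express many of these genes as well.

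The integrated stress response, which lowers general translation and induces amino acid and redox genes through ATF4, moved the opposite way. Of 23 genes tested, 13 fell and 5 rose, with a median of -0.50. *Trib3*, a pseudokinase that restrains ATF4 signalling, was at 1.36, 2.15 and 1.16 CPM with S-961 and 21 and 33 CPM untreated. That is a fall of 17.2-fold (log2 fold change -4.11 ± 0.28 (SE), adjusted p = 5.69e-05). *Chac1*, which degrades glutathione, was at 6.09, 7.2 and 8.22 CPM with S-961 and 56.9 and 80.5 CPM untreated (log2 fold change -3.26 ± 0.18 (SE), adjusted p = 3.87e-05). *Mthfd2*, an enzyme of mitochondrial folate metabolism, was at 21.9, 21.8 and 24.2 CPM with S-961 and 94.3 and 122 CPM untreated (log2 fold change -2.26 ± 0.13, adjusted p = 3.87e-05). *Ddit3*, which encodes the proapoptotic factor CHOP, was at 24.9, 23.2 and 28.2 CPM with S-961 and 66.7 and 88.9 CPM untreated (log2 fold change -1.61 ± 0.14 (SE), adjusted p = 0.000131), and *Eif4ebp1*, a brake on cap-dependent translation, fell by 1.94. The members that rose included *Cebpb*, by 1.85, and *Aldh1l2*, a further folate enzyme, by 1.56. *Ppp1r15a*, the phosphatase subunit that ends the response, rose by 0.61. The median kept its sign under every alternative tried, and was -0.49 with the acinar covariate, where *Trib3* remained lower (-6.63, adjusted p = 0.00503) and *Ddit3* no longer passed the threshold (adjusted p = 0.122). With that covariate 5 genes of the list were lower and 1 higher.

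The promoters of these 2 lists were read to show how they differ in sequence. Promoters were taken from RefSeq (GRCm38.p6) as 250 bases before to 50 bases after each start. The endoplasmic reticulum stress element was searched as CCAAT and CCACG separated by any 9 bases, on both strands. It was held by 9 of the 28 unfolded protein response genes with a promoter (32.1%) against 0.137% of all 27025 genes. The ATF4-type element, searched as TGATGNAA, was held by 8 of the 21 integrated stress response genes with a promoter (38.1%) against 4.51% of all genes. The first element was in 0 of the 21 integrated stress response promoters, and 1 unfolded protein response gene, *Herpud1*, held the second. These shares describe hand-written lists and say nothing about S-961. Printed are 3 promoters of the first kind and then 2 of the second, of genes with large changes or a central role, with the element in capitals and 5′ to 3′ in the direction of the gene.
Syvn1: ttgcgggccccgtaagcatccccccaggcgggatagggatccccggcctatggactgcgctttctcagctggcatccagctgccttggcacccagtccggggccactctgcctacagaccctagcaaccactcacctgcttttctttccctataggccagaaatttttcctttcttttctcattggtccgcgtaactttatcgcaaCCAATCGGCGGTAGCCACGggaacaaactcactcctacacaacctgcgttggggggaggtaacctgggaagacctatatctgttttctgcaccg
Derl3: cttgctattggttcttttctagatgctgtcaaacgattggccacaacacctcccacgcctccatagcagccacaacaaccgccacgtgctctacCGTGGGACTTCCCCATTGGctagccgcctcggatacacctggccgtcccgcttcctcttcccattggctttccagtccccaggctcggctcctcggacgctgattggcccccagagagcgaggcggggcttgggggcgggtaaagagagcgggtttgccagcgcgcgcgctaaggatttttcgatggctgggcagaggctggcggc
Hspa5: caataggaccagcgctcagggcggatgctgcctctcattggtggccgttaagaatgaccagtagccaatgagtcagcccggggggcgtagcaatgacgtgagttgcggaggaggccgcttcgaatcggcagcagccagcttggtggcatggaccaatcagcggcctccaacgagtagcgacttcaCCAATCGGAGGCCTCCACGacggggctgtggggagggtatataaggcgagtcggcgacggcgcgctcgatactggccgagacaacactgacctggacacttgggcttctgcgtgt
Trib3: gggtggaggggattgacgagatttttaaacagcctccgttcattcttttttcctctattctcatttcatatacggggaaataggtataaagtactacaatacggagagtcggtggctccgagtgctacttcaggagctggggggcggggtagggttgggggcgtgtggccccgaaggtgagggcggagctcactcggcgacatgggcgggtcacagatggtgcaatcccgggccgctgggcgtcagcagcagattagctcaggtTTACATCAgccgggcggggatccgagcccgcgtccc
Chac1: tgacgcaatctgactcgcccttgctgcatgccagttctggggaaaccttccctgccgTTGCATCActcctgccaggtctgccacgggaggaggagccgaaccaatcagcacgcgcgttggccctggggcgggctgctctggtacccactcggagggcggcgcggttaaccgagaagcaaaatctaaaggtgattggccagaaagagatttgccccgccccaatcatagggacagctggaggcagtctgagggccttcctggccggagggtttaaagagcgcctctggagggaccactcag
The positions are chr19:6046326-6046625 on the plus strand, chr10:75893148-75893447 on the plus strand, chr2:34771840-34772139 on the plus strand, chr2:152344011-152344310 on the minus strand and chr2:119350992-119351291 on the plus strand.

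In the *Syvn1* and *Hspa5* promoters the element runs in the direction of the gene and starts 44 and 65 bases before the start site, and in *Derl3* it lies on the opposite strand 156 bases before. In *Trib3* the element is on the opposite strand and lies behind the start, at position 15 of the transcript, and in *Chac1* on the opposite strand 193 bases before. In the whole unfolded protein response list 21 of 33 genes rose. Of the 9 unfolded protein response genes with the element, picked for this match and not by their change, 5 rose and 4 did not pass the threshold. The 5 were *Derl3*, *Syvn1*, *Dnajc3* (1.11, adjusted p = 0.000359), *Hspa5* and *Creld2* (0.68, adjusted p = 0.0353). The other 4 were the lectin chaperones *Calr* (-0.081, adjusted p = 0.649) and *Canx* (0.10, adjusted p = 0.517), and *Hsp90b1* and *Pdia6*, at 0.15 and 0.29 (adjusted p = 0.45 and 0.169). In the whole integrated stress response list 13 of 23 tested genes fell and 5 rose. Of the 8 integrated stress response genes with the ATF4-type element, 4 fell, 1 rose and 3 did not pass the threshold. Those that fell were *Trib3*, *Chac1*, *Vldlr* (-1.18, adjusted p = 0.000962) and *Asns* (-0.41, adjusted p = 0.039), and the one that rose was *Fgf21* (2.77, adjusted p = 0.014), a hormone that is also made by acinar cells. A match of letters is a description and shows no binding.

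Immediate early genes, which are switched on within minutes by calcium and cAMP when a cell is stimulated, were higher as a group. Of 21 tested, 17 rose and 0 fell, with a median of 1.01. *Npas4*, which in islets follows depolarization, was at 98.8, 102 and 97.3 CPM with S-961 and 5.89 and 6.69 CPM untreated. The 3 S-961 values differed by a few percent among themselves and were 15.8-fold above the untreated ones (log2 fold change 3.98 ± 0.12 (SE), adjusted p = 1.08e-05). *Nr4a1*, an orphan nuclear receptor, was at 525, 411 and 529 CPM with S-961 and 16.6 and 17.8 CPM untreated and showed the largest change of the list (log2 fold change 4.83 ± 0.18 (SE), adjusted p = 1.08e-05). *Nr4a3*, of the same family, was at 3.29, 3.85 and 3.22 CPM with S-961 and 0.331 and 0.313 CPM untreated (log2 fold change 3.40 ± 0.32 (SE), adjusted p = 0.000152), and *Fosl2*, a subunit of AP-1, was at 39.3, 33.7 and 40.0 CPM with S-961 and 5.78 and 5.6 CPM untreated (log2 fold change 2.73 ± 0.13 (SE), adjusted p = 2.52e-05). *Fos*, the best known member, was at 1052, 1045 and 934 CPM with S-961 and 620.4 and 534 CPM untreated and rose by the smaller amount of 0.81 ± 0.13 (adjusted p = 0.00137). The list's median was 1.01 with the length trend removed and 1.01 with the acinar covariate, where 5 genes passed the threshold, and 11 passed in a fit over all 11 libraries.

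The promoter of *Npas4* is shown because this gene is known to follow depolarization and its values varied so little within groups. It holds 2 copies of TGACGT, the core of the cAMP response element, on opposite strands (in capitals, reverse strand copy first), 180 and 169 bases before the start. TGACGT was found in 7 of the 18 immediate early genes with a promoter (38.9%) and in 8.37% of all genes.
Npas4: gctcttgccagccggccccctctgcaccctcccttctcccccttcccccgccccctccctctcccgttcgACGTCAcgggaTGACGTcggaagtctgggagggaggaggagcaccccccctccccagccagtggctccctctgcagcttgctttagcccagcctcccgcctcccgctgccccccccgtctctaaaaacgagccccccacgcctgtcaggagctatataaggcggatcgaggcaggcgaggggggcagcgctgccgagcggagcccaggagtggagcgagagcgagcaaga
It lies at chr19:4989922-4990221 on the minus strand (GRCm38.p6, RefSeq). The other 6 genes with TGACGT were *Fos*, *Dusp1* and *Nr4a3*, which rose, *Egr2* and *Maff*, at 1.34 and 0.35 (adjusted p = 0.129 and 0.142), and *Egr4*, which was too low to be tested. In the whole list 17 of 21 tested genes rose.

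Genes that respond to glucose through the factor ChREBP rose in 9 and fell in 6 of 21 cases. *Txnip*, which inhibits thioredoxin and is a sensitive reporter of glucose in beta cells, was at 1109.6, 1096 and 957 CPM with S-961 and 508 and 476 CPM untreated. Its S-961 values were all above the untreated ones (log2 fold change 1.10 ± 0.13 (SE), adjusted p = 0.000307). Its relative *Arrdc4* rose by 0.91 and *Rgs16*, a regulator of G protein signalling, by 0.86. *Thrsp*, a lipogenic target, was at 0.573, 0.441 and 0.354 CPM with S-961 and 6.78 and 8.65 CPM untreated and moved strongly the other way (log2 fold change -4.06 ± 0.28 (SE), adjusted p = 5.79e-05), and the fructose kinase *Khk* fell by 1.75 and the desaturases *Scd1* and *Scd2* by 1.6 and 1.01. With the acinar covariate *Rgs16* was at -0.66 and *Scd1* at 0.57, and neither passed the threshold. Without untreated replicate 2, 5 genes of the list rose, without untreated replicate 1, 3 fell, and with the covariate 1 rose and 1 fell.

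The insulin signalling pathway, the target of S-961, was examined from receptor to effectors. *Insr*, the insulin receptor itself, was at 68.3, 57.7 and 51.9 CPM with S-961 and 55.7 and 61.7 CPM untreated. The groups overlapped and no change was detected (log2 fold change 0.016 ± 0.13 (SE), adjusted p = 0.929), although removal of the length trend gave -0.43 (adjusted p = 0.007) for this long transcript. *Igf1r*, the related receptor of IGF-1, had 55.2, 61.2 and 52 CPM with S-961 and 47 and 48.8 CPM without (log2 fold change 0.23 ± 0.11, adjusted p = 0.104), and rose by 0.28 without S-961 replicate 3 (adjusted p = 0.0117). The adaptor *Irs2*, on which beta cell growth depends and which FOXO and CREB induce, was at 152, 123 and 103 CPM with S-961 and 31.9 and 36.6 CPM untreated. All S-961 values were at least 2-fold above the untreated ones (log2 fold change 1.88 ± 0.18 (SE), adjusted p = 0.000152). *Irs1* rose from 2.73 and 3.72 CPM to 17, 15.5 and 8.31 CPM (log2 fold change 2.08 ± 0.33, adjusted p = 0.00134), but was at -0.51 with the acinar covariate. The feedback inhibitor *Socs3* rose by 1.39 and *Rictor*, a subunit of mTORC2, by 1.17. These 2 genes were at -0.24 and -0.10 with the acinar covariate. Of the transcription factors that insulin restrains, *Foxo4* fell by 1.20 and *Foxo3* by 0.76, and the receptor inhibitor *Grb14* fell by 0.75. Over the 38 genes tested, 14 rose and 10 fell. Their median of 0.20 changed sign to -0.084 with the length trend removed and to -0.39 with the acinar covariate. The counts were 9 and 6 without untreated replicate 2, and with the covariate 1 rose and 3 fell.

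Cell division was assessed next, since S-961 is used to make beta cells divide. *Mki67* was at 3.35, 13.5 and 3.03 CPM with S-961 and 6.3 and 3.41 CPM untreated. Only S-961 replicate 2 lay above both untreated libraries (log2 fold change 0.45 ± 0.64 (SE), adjusted p = 0.581). *Top2a*, a topoisomerase of dividing cells, was at 2.35, 4.94 and 2.29 CPM with S-961 and 3.39 and 3.05 CPM untreated (log2 fold change -0.01 ± 0.37, adjusted p = 0.984), and *Cdk1*, the kinase that drives mitosis, at 1.27, 1.35 and 0.709 CPM with S-961 and 2.1 and 1.57 CPM untreated (log2 fold change -0.72 ± 0.38, adjusted p = 0.15). *Foxm1*, the factor behind many mitotic genes, likewise gave no detectable difference (log2 fold change -0.14 ± 0.48, adjusted p = 0.832). Of 51 G2/M phase genes 7 rose and 3 fell, with a median of -0.026, and of 40 S phase genes 8 rose and 5 fell, with a median of 0.11. These shares were below those of all genes. Without either untreated library 2 of the G2/M genes rose, and without S-961 replicate 2, the library with the most *Mki67*, 4 rose and 5 fell, while 5 S phase genes rose without that library or without untreated replicate 2. In the fit with the acinar covariate 4 G2/M genes and 0 S phase genes rose. The G2/M median was -0.62 in that fit and 0.21 under the housekeeping scaling, so that it had no fixed sign. The 4 G2/M genes that rose most, *G2e3*, *Tubb4b*, *Cks1b* and *Rangap1* (1.75, 0.87, 0.79 and 0.49), include the tubulin *Tubb4b*, which is also expressed outside mitosis, while the mitotic kinase *Aurka* fell by 1.14. On the joint scale the G2/M list summed to 889 to 916 CPM in the S-961 libraries labelled virgin and 849 to 1807 CPM in those labelled multipara. The untreated libraries were at 685 to 746 CPM (virgin label) and 697 to 982 CPM (multipara label). Given the doubt about the labels of the S-961 groups, parity and S-961 cannot be told apart for the cell division genes either.

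A further list held cyclins, kinases and factors that mostly act in G1, with *Ccna2*, *Ccnb1*, *Foxm1* and *Mybl2*, which act later, among them. Of its 21 genes tested, 9 rose and 1 fell, with a median of 0.82. *Myc*, a driver of growth, was at 44.4, 38.2 and 39.8 CPM with S-961 and 6.3 and 4.89 CPM untreated. That is a rise of 7.28-fold without overlap (log2 fold change 2.86 ± 0.15 (SE), adjusted p = 3.14e-05). *Ccnd1*, the cyclin that starts the cycle, was at 192, 217 and 168 CPM with S-961 and 96.8 and 102 CPM untreated (log2 fold change 0.95 ± 0.13 (SE), adjusted p = 0.000804). *Ccnd2*, the D-type cyclin of islets, was at 689, 659 and 530.2 CPM with S-961 and 568 and 623 CPM untreated and did not pass the threshold (log2 fold change 0.072 ± 0.14, adjusted p = 0.697), and turned to -0.26 with the length trend removed. The E-type cyclins *Ccne1* and *Ccne2* rose by 1.29 and 1.45, whereas *Cdk4*, the partner of the D-type cyclins, fell by 0.34, and was at 0.21 with the acinar covariate. Among the 16 inhibitors 9 rose, such as *Rerg*, a small GTPase with growth-restraining activity (2.99), *Rbl1* (1.26) and *Rb1* (0.80), while *Cdkn2b*, the p15 inhibitor, fell by 1.68. *Cdkn1a*, the p21 inhibitor, was at 76.5, 75 and 68.6 CPM with S-961 and 46.8 and 69.7 CPM untreated, with a higher value in untreated replicate 2 than in S-961 replicate 3 (log2 fold change 0.33 ± 0.16, adjusted p = 0.123), and rose by 0.64 without that untreated library (adjusted p = 0.0228). Without untreated replicate 2 the genes that rose numbered 5 of the G1 list and 4 of the inhibitors, and without untreated replicate 1 the inhibitors that rose numbered 4. Adding the acinar covariate gave 1 gene of the G1 list as higher, with a median of 0.21, and 0 of the 16 inhibitors passed the threshold.

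Genes known from the islets of pregnant mice differed although these mice were labelled virgin. Most of them are known to be raised in pregnancy through the prolactin receptor. Of 18 tested, 9 rose and 3 fell, with a median of 0.46. Without untreated replicate 2, and likewise over all 11 libraries, 1 fell, and with the acinar covariate 4 rose and 0 fell. Given the doubt about the labels of the S-961 groups, parity and S-961 cannot be told apart for this list. *Tph1*, the enzyme that starts serotonin synthesis, had 0 counts in both untreated libraries and 263 in the 3 S-961 libraries, which is at least 47.1-fold higher when the untreated libraries together are set to 3 counts. *Tnfrsf11b*, which encodes osteoprotegerin, was at 48, 46.5 and 40.8 CPM with S-961 and 2.65 and 2.43 CPM untreated (log2 fold change 4.15 ± 0.14 (SE), adjusted p = 1.08e-05). *Matn2*, an extracellular matrix protein, was at 129, 139.7 and 148 CPM with S-961 and 20.6 and 19.1 CPM untreated (log2 fold change 2.80 ± 0.12 (SE), adjusted p = 1.87e-05), and *Lrrc55*, an auxiliary subunit of potassium channels, at 7.36, 6.65 and 5.32 CPM with S-961 and 0.7 and 0.822 CPM untreated (log2 fold change 3.08 ± 0.26 (SE), adjusted p = 0.00011). On the joint scale *Matn2* was at 51.4 and 50 CPM in the untreated libraries labelled multipara and *Lrrc55* at 24.9 and 22.8 CPM, so that for *Lrrc55* the S-961 libraries labelled virgin lay between the 2 untreated groups. *Bcl6*, a repressor that lactogens lower, fell by 1.02, and *Ddc*, the next enzyme of serotonin synthesis, by 0.49.

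Several hormone-dependent and metabolic genes were lower. *Mt1*, a metallothionein that zinc and glucocorticoids induce, was at 55.8, 75.5 and 82 CPM with S-961 and 649.6 and 913 CPM untreated. *Mt2* was at 24.9, 38.1 and 39.3 CPM with S-961 and 345 and 491 CPM untreated. Both fell, by 11-fold and 12.3-fold (log2 fold change -3.46 ± 0.21 and -3.62 ± 0.23, adjusted p = 4.38e-05 and 5.02e-05). Of 14 glucocorticoid targets 7 fell and 4 rose, or 5 and 1 with the acinar covariate, and the fall included *Zbtb16* (2.81) and *Sult1a1* (2.72), whereas the glucocorticoid receptor *Nr3c1* and *Sgk1* rose by 0.75 and 0.63. In the circadian clock 8 of 19 genes rose and 5 fell (3 without untreated replicate 1), or 3 and 1 with the acinar covariate. *Per2*, of the negative arm, was at 49.1, 57.6 and 57.3 CPM with S-961 and 12.7 and 13.7 CPM untreated (log2 fold change 2.05 ± 0.12 (SE), adjusted p = 4.33e-05), *Per1* rose by 0.87, and *Arntl*, of the positive arm, fell by 1.11. The clock output gene *Dbp* fell by 0.92 and was at 0.31 with the acinar covariate. *Clock* rose by 1.01 and was at -0.19 there. The time of day of islet isolation is not given in the sources used here.

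In sterol synthesis 4 of 25 genes rose and 11 fell, with *Hmgcs1* and *Sqle* higher (0.93 and 0.94) and *Mvk* lower (-1.34). The list's median of -0.23 turned positive under the housekeeping scaling and with the acinar covariate, and 5 genes fell without untreated replicate 1. With the covariate 1 rose and 1 fell. In glycolysis 2 of 23 genes rose and 8 fell, or 3 to 5 without any 1 library other than S-961 replicate 3 and 0 with the acinar covariate. *Pfkfb2*, which makes the activator of phosphofructokinase, was at 141, 151 and 129 CPM with S-961 and 40.1 and 38.9 CPM untreated (log2 fold change 1.83 ± 0.11 (SE), adjusted p = 4.58e-05), and *Aldoc*, an aldolase, fell by 1.80. Fatty acid oxidation genes fell in 9 of 20 cases, or 0 with that covariate, such as the lipid droplet protein *Plin2* (1.20). *Ehhadh*, of peroxisomal oxidation, rose by 1.19. Genes that beta cells normally keep silent, together with markers of lost identity, fell in 12 of 29 cases and rose in 1, with 6 lower without untreated replicate 1 3 without untreated replicate 2 and 0 with that covariate. *Neurog3*, the factor of endocrine progenitors, was at 1.39, 1.82 and 1.84 CPM with S-961 and 4.82 and 6.26 CPM untreated (log2 fold change -1.72 ± 0.25 (SE), adjusted p = 0.000845). *Aldh1a3*, a marker of dedifferentiated beta cells, was at 1.96, 2.47 and 1.03 CPM with S-961 and 0.921 and 1.17 CPM untreated, with overlapping groups (log2 fold change 0.80 ± 0.43, adjusted p = 0.157), and *Ldha*, the lactate dehydrogenase that beta cells keep low, gave -0.55 ± 0.26 (adjusted p = 0.106). Without S-961 replicate 3 both passed the threshold, *Aldh1a3* at 1.08 and *Ldha* at -0.90 (adjusted p = 0.018 and 8.77e-05). Heat shock genes rose in 2 and fell in 2 of 14 cases, or fell in 8 without S-961 replicate 3 and rose in 0 without either untreated library, with the cochaperone *Bag3* higher (0.53) and the mitochondrial *Hspe1* lower (-1.06, and 0.37 with the acinar covariate).

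Nearly all cytosolic ribosomal protein genes were lower, 80 of 81, with a median of -1.54. Their summed level was 14387 to 19386 CPM with S-961 and 41397 to 46326 CPM without. *Rps27* was at 109, 111 and 166 CPM with S-961 and 604 and 724 CPM untreated (log2 fold change -2.37 ± 0.20 (SE), adjusted p = 0.000101), and *Rpl31* at 146, 145 and 175 CPM with S-961 and 659 and 769.7 CPM untreated (log2 fold change -2.20 ± 0.14 (SE), adjusted p = 4.55e-05). Nuclear genes of the respiratory chain fell in 65 of 80 cases with a median of -1.01. *Atp5k*, a small subunit of the ATP synthase, was at 15.9, 16.9 and 23.2 CPM with S-961 and 99.98 and 109.9 CPM untreated (log2 fold change -2.49 ± 0.16 (SE), adjusted p = 5.14e-05). *Ndufs1*, a large subunit of complex I, was the member that rose (0.38, adjusted p = 0.0183). Once the acinar covariate was added 1 ribosomal protein gene was lower, with a median of -0.60, and of the respiratory chain 0 were lower and 2 higher, with a median of -0.091.

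Both groups have short transcripts, and across the 14288 protein-coding genes with a length the change rose with the length of the longest annotated transcript (Spearman's rho 0.35, across genes, which are not independent replicates). The median change was -0.94 in the 588 genes of up to 1000 bases and 0.42 in the 2090 genes over 6000 bases. Of the former 62.4% fell and 8.16% rose, and of the latter 8.9% fell and 47.1% rose. After removal of this trend in each library, the ribosomal median was -0.96 with 71 genes lower, and that of the respiratory chain -0.28 with 41 lower and 8 higher. The 13 mitochondrially encoded proteins changed sign, from a median of -0.27 with 4 lower and 3 higher (7 and 5 without S-961 replicate 3, 2 and 1 without untreated replicate 1, 2 and 2 without untreated replicate 2, and 2 and 3 without S-961 replicate 1) to 0.88 with 9 higher. Within them *mt-Nd3*, of 348 bases, was lower (-1.48) and *mt-Nd1*, of 957 bases, higher (0.69), although both are cut from the same precursor. The part of library preparation in this trend was not tested.

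**Figure D3:**
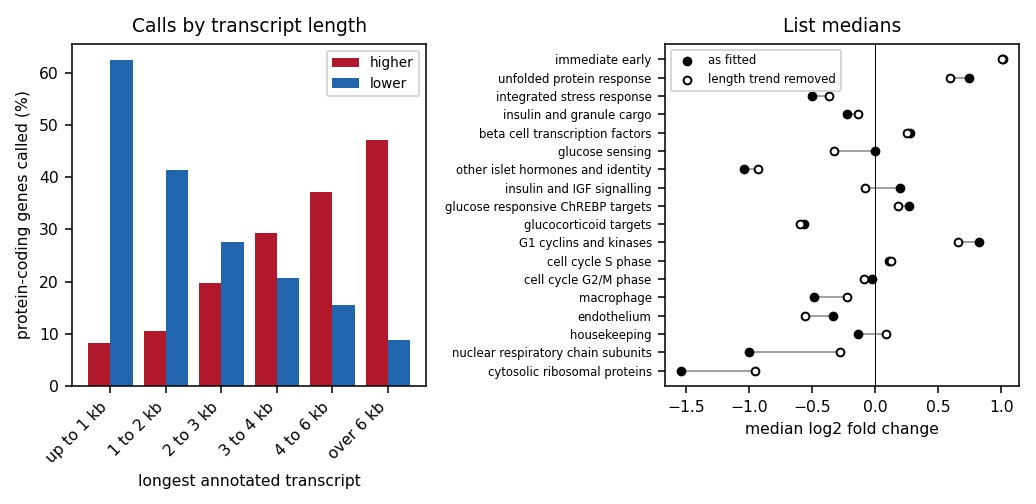
Left, share of protein-coding genes called higher (red) or lower (blue) by length of the longest transcript in kilobases (kb). The share lower falls from 62.4% up to 1 kb to 8.9% over 6 kb. Right, median log2 fold change of 18 gene lists as fitted (filled) and with the length trend removed (open), where immediate early genes stay at 1.01 and ribosomal protein genes move from -1.54 to -0.96.

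Housekeeping genes were set beside these. Of 30, 12 fell (6 or 7 without any 1 library other than S-961 replicate 3) and 3 rose, with a median of -0.14 and a switch of sign to 0.10 under their own scaling, to 0.082 without the length trend and to 0.37 with the acinar covariate. *Gapdh*, a glycolytic enzyme, was at 565, 543 and 610.1 CPM with S-961 and 626 and 613 CPM untreated and *Actb*, which encodes beta-actin, at 349, 366 and 457 CPM with S-961 and 295 and 307 CPM untreated, neither past the threshold (log2 fold change -0.11 ± 0.11 and 0.38 ± 0.14, adjusted p = 0.421 and 0.0581), though *Actb* passed it under the housekeeping scaling, at 0.61. *Tbp*, the TATA-binding protein, whose longest annotated transcript has 12794 bases, rose by 0.97, and *Ppia*, cyclophilin A, fell by 1.28. *Rplp0*, a ribosomal protein often used as a reference, fell by 0.40, but was at 0.055 without the length trend and 0.38 with the acinar covariate.

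Genes of acinar cells were higher in nearly every case, with 31 of 33 tested past the threshold and a median of 5.0. *Cpa1*, the carboxypeptidase A1 of pancreatic juice, was at 617, 768 and 204 CPM with S-961 and 5.01 and 10.3 CPM untreated. Replicate 3 of the S-961 group was the lowest of the 3 and still far above both untreated libraries (log2 fold change 6.12 ± 0.67 (SE), adjusted p = 0.000271). *Prss2*, a trypsinogen, was at 386, 557 and 133 CPM with S-961 and 4.16 and 8.03 CPM untreated (log2 fold change 5.88 ± 0.69 (SE), adjusted p = 0.000338), and *Reg1*, a secreted acinar protein, rose by 4.91. *Ptf1a*, the transcription factor that defines acinar cells, had 41 counts with S-961 and 2 without, a ratio of 11 with a 95% counting interval of 2.86 to 93.9. Summed over the list, the acinar level was 2883 to 10520.1 CPM with S-961 and 184 to 314 CPM untreated, and on the joint scale 6949 to 19939 CPM in the S-961 libraries labelled multipara. The mean log2 CPM of the list, used as the covariate, was 6.10, 6.43 and 4.68 with S-961 and 1.11 and 1.71 untreated. Treatment and acinar RNA can therefore hardly be told apart in these 5 libraries. Counts with the covariate stand beside most lists. For the others, genes higher and lower with it numbered 6 and 0 (acinar), 2 and 0 (housekeeping) and 3 and 0 (heat shock). They numbered 1 and 2 (mitochondrially encoded), 5 and 0 (lymphocyte) and 1 and 1 (duct). In the Reg, red cell, adipocyte and nerve lists 0 genes passed with it. *Amy2a1* and *Cpa1* in the S-961 libraries labelled multipara lay in the same range as here or above it.

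Markers of other cells mostly fell or were not called. Of 15 macrophage genes 7 fell, among them *C1qa* (by 0.91) and *Aif1* (by 1.83), and 0 rose. Endothelial genes fell in 4 of 14 cases, such as *Esm1* (1.41) and *Pecam1* (0.52), and stromal genes in 8 of 15, such as *Thy1* (1.55) and *Col3a1* (0.43). Lower genes under the acinar covariate were 2 endothelial, 0 macrophage and 0 stromal ones. The endothelial share was near that of all genes, and its count was 2 without untreated replicate 2. The macrophage count was 4 without either untreated library, and the stromal count 2 without either of them and 4 without S-961 replicate 1 or 2. Lymphocyte genes varied within groups, from 31.8 to 378.8 CPM in sum with S-961 and from 85.6 to 806.2 CPM untreated, and 3 of 15 were called lower, such as *Cd79a*, of the B cell receptor, 11 without S-961 replicate 3 and 0 without either untreated library. *Cd79a*, *Aif1* and *Lck* were above 0 with the acinar covariate, at 2.23, 0.86 and 2.81. Ductal genes split, with *Cldn4* and *Krt7* lower (-1.89 and -0.98) and *Spp1* and *Tff2* higher (1.31 and 2.68), and the count of ductal genes lower was 5, or 2 without untreated replicate 1 and 3 without S-961 replicate 2. Red cell genes were high in S-961 replicate 2, where *Hba-a1*, an alpha globin whose reads are shared with a near-identical copy, was at 172 CPM against 32.7 and 52.0 CPM in the other S-961 libraries and 12.4 and 15 CPM untreated.

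Single genes were ranked in both directions among those called with a mean log2 CPM of at least 2, no overlap and no Gm or Rik symbol. The largest rises in this ranking belonged to acinar enzymes and to a few genes that were nearly silent without S-961. *Mc5r*, a melanocortin receptor, had 1 count in the untreated libraries together and 3046 with S-961, at 42.9, 28.5 and 21.1 CPM (ratio 1635, counting interval 293.2 to 64596). *Gpr26*, an orphan receptor, had 1 and 1538 counts (ratio 825.5, interval 147.9 to 32626), and *Gad2*, which makes GABA, 2 and 898 (ratio 241.0, interval 66.5 to 1993). *Myh7b*, a myosin heavy chain, had 3 and 765 counts (ratio 136.9, interval 46.7 to 665.2). The acinar genes of this set were *Cel*, *Cpb1*, *Gp2* and the amylases *Amy2a1* and *Amy2a4*, where reads are split among near-identical copies. *Amy2a1* had 0 counts untreated, which makes it at least 8261-fold higher. The unnamed gene *AC124502.5* rose by 6.56. The largest falls were those of *AY036118*, at least 5392-fold lower, *Ccl21a*, a chemokine of lymphatic tissue, at 0.965, 0 and 1.29 CPM with S-961 and 14.4 and 30.8 CPM untreated, *Vip*, a neuropeptide, at 2.2, 2.68 and 1.1 CPM with S-961 and 30.0 and 59.7 CPM untreated, *Ppp1r17* (-4.34), *Fam107a* (-3.48) and the immunoglobulin segment *Igkv5-43* (-3.32), besides *Trib3*, *Chac1*, *Mt1* and *Mt2*. *Igkv5-43* was at 3.27 with the acinar covariate.

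How far these changes were shared was read from all 11 libraries. The libraries labelled multipara share no sample with the comparison, but in them too S-961 and preparation cannot be told apart. Of the 4466 genes that rose, 3068 (68.7%) were also higher in all 4 S-961 libraries labelled multipara than in both untreated ones of that label, against 25.2% of all genes tested, and of the 4034 that fell, 2927 (72.6%) were lower there, against 25.7%. For *Npas4* the S-961 libraries labelled multipara were at 82.3, 60.8, 75.4 and 95.9 CPM, against 7.73 and 6.49 CPM untreated, and for *Trib3* at 2.79, 1.72, 5.41 and 1.03 CPM against 25.6 and 34.1 CPM. Lists differed in this, by genes without overlap under the virgin and then the multipara label. Immediate early genes higher numbered 17 and 16, with 0 lower. Unfolded protein response genes numbered 25 and 12 higher, 2 and 1 lower. The list of other islet hormones had 13 lower and 0 higher, then 6 lower and 5 higher. Stroma had 10 lower and 1 higher, then 1 lower and 5 higher. For *Mc5r*, *Gad2* and *Rerg* the library labelled multipara S-961 4 was near the libraries labelled virgin S-961, with 0.0813, 0.0291, 0.18 and 11.3 CPM of *Gad2* in the multipara S-961 libraries 1 to 4. A difference of the S-961 effect between the labelled parity groups passed the threshold for 0 of 17996 genes (edgeR interaction term over all 11 libraries), with 1179 at an unadjusted p-value under 0.05.

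**Figure D4:**
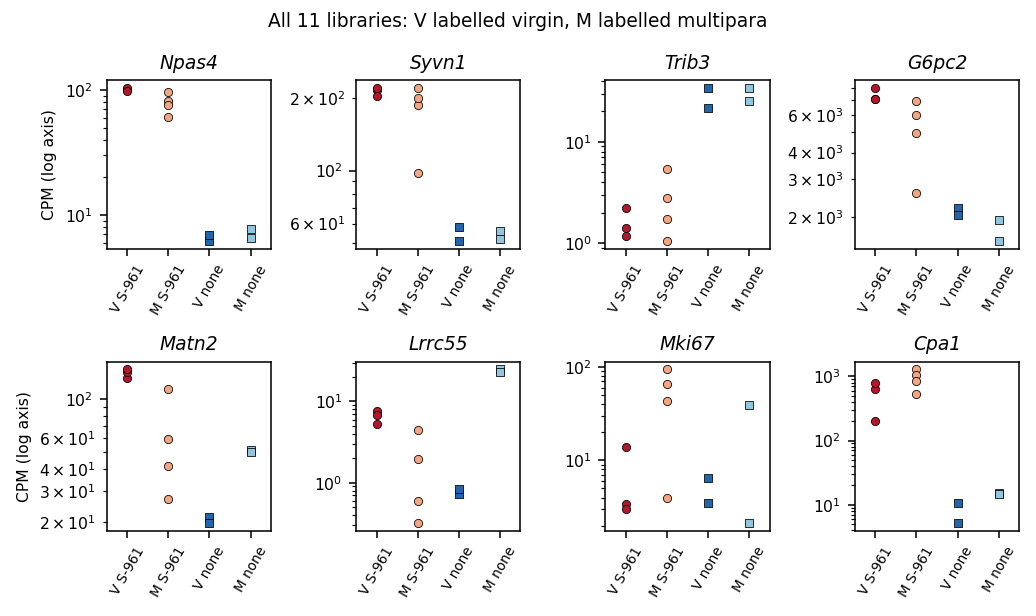
CPM (log axis, joint scaling) of 8 genes in all 11 libraries, by label (V virgin, M multipara, with S-961 or none). *Npas4* and *Syvn1* are higher and *Trib3* lower in every S-961 library, whereas for *Lrrc55* the untreated libraries labelled multipara are the highest and for *Mki67* 3 of the libraries labelled multipara S-961 and 1 untreated library labelled multipara lie above all others, at 38.6 to 93.9 CPM.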

How the data were processed

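Islet RNA was extracted with Trizol and sequenced as poly(A)-selected, strand-specific libraries. The authors deposited expected counts per gene and library, without normalization, made with STAR and RSEM on GRCm38 (mm10) per the submitters' processing notes, with versions not given in the sources used here. All 55536 genes carried identifiers of GENCODE release M21, from which transcript lengths were taken. Reads shared by near-identical genes are divided by RSEM, so that their values are uncertain.

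Counts were rounded and fitted with edgeR 4.0.16 in R 4.3.3 (TMM, filterByExpr with a minimum count of 10, quasi-likelihood F test, Benjamini-Hochberg threshold 0.05) on the 5 libraries labelled virgin. The coefficient of biological variation was 0.169. Gene lists were written by hand, apart from 2 taken from symbol patterns. The comparison, the lists and the named genes were chosen with earlier results of these data known. Lists are given by counts and medians, since 3 against 2 libraries allow a smallest two-sided permutation p-value of 0.2. Genes were named by a rule. It took the 10 largest changes in each direction (adjusted p under 0.05, mean log2 CPM of at least 2, no overlap, no Gm or Rik symbols), a set of fixed genes, and up to 4 genes per list and direction with a mean log2 CPM of at least 1. Genes with a promoter match were named for that match. A few genes that the rule took are not reported here. 9 motifs were searched, and the 3 described were picked after their shares were seen.

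Alternatives were DESeq2 1.42.0, median-ratio size factors, no low count filter, limma 3.58.1 voom, all 11 libraries, a replicate block, the acinar level as a covariate, a table without *Ins1*, *Ins2* and acinar genes, scaling on housekeeping genes, each library left out, and the removal of the transcript length trend (lowess, chosen after seeing the data). Bounds use 3 counts per group, and ratios of few counts have exact binomial intervals that cover counting error only. On simulated counts over 16171 genes edgeR recovered 80 of 100 genes changed 2-fold and 96 of 100 changed 4-fold, with 25 false among 201 calls. That is a larger share of false calls than the threshold of 0.05 aims at. The simulation changed 200 genes and held no trend with transcript length or acinar RNA. It therefore does not stand for the data, where 51.2% of genes were called.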

Additional observations from a re-analysis of the deposited data

Results flagged for a closer look

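For *Lrrc55* and *Col3a1* every library labelled virgin moved one way with S-961 and every library labelled multipara the other. *Lrrc55* rose in the former, whereas in the latter it was at 0.596, 0.32, 1.96 and 4.43 CPM with S-961 and 24.9 and 22.8 CPM without, a difference between the effects of 6.76 on the log2 scale. *Col3a1*, a collagen, was at 18.3, 21.4 and 17.7 CPM against 27.9 and 24.3 CPM in the libraries labelled virgin and at 48.6, 46.3, 108 and 40.7 CPM against 29.2 and 18.7 CPM in those labelled multipara, a difference of -1.80. The edgeR interaction term over all 11 libraries gave adjusted p-values of 0.372 and 0.555, so that neither difference passed the threshold. Both patterns also rest on the labels of the S-961 groups, and an exchange of these labels was not tested.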

How the results depend on the processing

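The count of 8500 genes past the threshold ran from 8164 to 8668 with DESeq2, median-ratio size factors, no low count filter, limma voom, the housekeeping scaling, the removal of *Ins1*, *Ins2* and acinar genes from the table and the removal of the length trend, the last of which was chosen after seeing the data. It was 6562 in a fit over all 11 libraries. With the acinar covariate it was 1214, with 795 higher and 419 lower (624 and 274 of them called in the same direction without it), and under the housekeeping scaling 2534 genes were lower. Leaving out 1 library at a time gave 4914 to 10304 genes in all, 2703 to 5281 higher and 2211 to 5023 lower, with the fewest without untreated replicate 2 (4914) and untreated replicate 1 (5359), where a single untreated library is assumed to vary like the S-961 ones, and the most without S-961 replicate 3. Fewer libraries enter each of these fits, and the cause was not tested. Without S-961 replicate 3 the coefficient of biological variation was 0.104, against 0.169 with all 5 libraries. The chi-square statistic per degree of freedom was 8.9 between S-961 replicates 1 and 2. Between these and replicate 3 it was 53.9 and 59.1.

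The replicate numbers 1 and 2 occur in both groups, but nothing ties them to a shared batch. Deviations from the group means correlated at -0.12 for number 1 and 0.12 for number 2. Deviations of the 2 untreated libraries mirror each other by construction, so that these values are not independent and cannot settle a pairing. With the replicate number as a block 10595 genes passed the threshold, and S-961 replicate 3, which has no partner, then adds nothing to the comparison. *Actb*, *Aldh1a3*, *Cdkn1a*, *Iapp*, *Igf1r* and *Ldha* then passed the threshold, and no named gene lost it.

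With the acinar covariate 65 of the 157 genes described by name kept their direction and side of the threshold, 73 kept their direction and lost the call, and 19 changed sign. The values that changed sign were *Aif1* 0.86, *Cd79a* 2.23, *Cdk4* 0.21, *Clock* -0.19, *Dbp* 0.31, *Esrrg* -0.67, *Fkbp2* 0.23, *Hba-a1* -0.59, *Hspe1* 0.37, *Igkv5-43* 3.27, *Irs1* -0.51, *Kcnh6* -0.30, *Lck* 2.81, *Ptf1a* -1.03, *Rgs16* -0.66, *Rictor* -0.10, *Rplp0* 0.38, *Scd1* 0.57, *Socs3* -0.24. With the length trend removed they were *Ccnd2* -0.26, *Iapp* 0.59, *Insr* -0.43, *Rplp0* 0.055, *mt-Nd3* 0.055. Medians of gene lists that changed sign with the covariate were those of granule cargo (0.11), beta cell transcription factors (-0.16), acinar genes (-0.013), the Reg family (-0.65), lymphocytes (4.54), red cells (-1.86), housekeeping genes (0.37), ChREBP targets (-0.23), sterol synthesis (0.19) and insulin signalling (-0.39). Those of heat shock genes (0.88), glycolysis (0.067) and S phase genes (-0.029) changed sign with it as well. Under the housekeeping scaling, granule cargo was at 0.0092, housekeeping genes at 0.10 and sterol synthesis at 0.019. Glucose sensing was at 0.23 there, G2/M genes at 0.21, glycolysis at 0.12 and heat shock genes at 0.043. With the length trend removed, housekeeping genes were at 0.082, insulin signalling at -0.084 and mitochondrially encoded proteins at 0.88. Ductal genes were at 0.17 without untreated replicate 1 and the Reg family ran from -0.14 (without untreated replicate 2) to 3.77 (without S-961 replicate 2), and the adipocyte list at 0.59 without the low count filter. The medians of glucose sensing, G2/M and S phase genes, all near 0, also changed sign when some single libraries were left out.

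Of the 157 genes described by name, calls were lost without untreated replicate 1 for *Aif1* -1.62, *Arntl* -0.86, *Bag3* 0.47, *Cd79a* -2.38, *Cdk4* -0.34, *Cks1b* 0.80, *Col3a1* -0.34, *Ddc* -0.40, *Hba-a1* 2.51, *Hnf4a* -0.47, *Lck* -1.82, *Ndufs1* 0.48, *Ptf1a* 6.69, *Rangap1* 0.60, *Rgs16* 0.92, *Rplp0* -0.45, *Scd1* -0.95, *Scd2* -0.57, *Sgk1* 0.52. Without untreated replicate 2 they were lost for *Aif1* -2.02, *Aurka* -0.94, *Bag3* 0.59, *Bcl6* -0.83, *Ccne1* 1.16, *Cd79a* -2.28, *Cdk4* -0.34, *Cks1b* 0.78, *Col3a1* -0.52, *Esrrg* 1.17, *Hba-a1* 2.78, *Hnf4a* -0.47, *Hspa5* 0.70, *Igkv5-43* -3.23, *Lck* -1.88, *Ndufs1* 0.27, *Pecam1* -0.42, *Ptf1a* 2.42, *Rangap1* 0.37, *Rb1* 0.62, *Rgs16* 0.79, *Rplp0* -0.37, *Sgk1* 0.74. Without S-961 replicate 1 they were lost for *Cdk4* -0.28, *Col3a1* -0.38, *Lck* -1.65, *Rplp0* -0.36, *Sgk1* 0.65, and without S-961 replicate 2 for *Cdk4* -0.30, *Rplp0* -0.31. Depth limits the genes with few counts, for which counting intervals are given.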

Other observations

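Several nuclear and noncoding RNAs, picked after their values were seen, were also higher with S-961. *Malat1*, a noncoding RNA kept in the nucleus, was at 799, 766 and 550.0 CPM with S-961 and 174 and 183 CPM untreated (log2 fold change 1.98, adjusted p = 0.000149 by edgeR), and *Neat1*, which builds nuclear paraspeckles, at 363, 374 and 342 CPM against 102 and 145 CPM (1.54, adjusted p = 0.000251). By annotated class, the 39 sense intronic transcripts had a median change of 1.68 and the 361 transcripts still to be checked experimentally one of 1.27, whereas the 240 processed pseudogenes had one of -1.01. Noncoding RNAs were not higher as a whole. The 524 intergenic ones had a median of -0.25 (102 higher, 143 lower) and the 538 antisense transcripts one of -0.17 (91 higher, 138 lower). *Adnp*, a homeobox gene expressed in most tissues, had 14 counts in the 2 untreated libraries together and 1502 in the 3 S-961 libraries, at 13.7, 20.7 and 11 CPM.

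Of the remaining lists, the Reg family had 2 of 4 tested genes higher, ductal genes 3 higher and 5 lower of 13, red cell genes 2 of 5 higher, adipocyte genes 1 of 2 lower, and genes of nerve and Schwann cells 3 of 7 lower. Without either untreated library 0 red cell genes were higher, and the nerve and Schwann genes lower numbered 0 without untreated replicate 1 and 1 without untreated replicate 2. The adipocyte call was lost without S-961 replicate 1, S-961 replicate 2 or untreated replicate 2. Besides *AY036118*, *Gm20481*, *Gm28539* and *Gm49333* were at 0 in all 7 S-961 libraries with at least 20 counts in every untreated library, and besides *Amy2a1* the histone gene *Hist2h3c1* showed the reverse, with 44 to 252 counts in each S-961 library.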
